A study of Rattus norvegicus with 107 samples.

Results

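Collagens and the other genes of the extracellular matrix were followed in rat colon and brain from the day before birth to weaning age. The members were all probes whose gene symbol names a collagen, a laminin chain, a matrix metalloproteinase (Mmp), a tissue inhibitor of these proteases (Timp), a member of the ADAMTS family, a lysyl oxidase, a fibulin or a fibrillin, together with fibronectin (Fn1), Sparc, Postn, Eln, Dcn, Lum, Bgn and Spp1. The ADAMTS family here holds the ADAMTS proteases and the ADAMTS-like genes Adamtsl4 and Adamtsl5. This rule took 86 of the 22523 probes on the array and 83 of its 13337 gene symbols. No probe carried the symbol Tnc, which the rule also lists.

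The study asked how sialic acid in rat milk relates to its uptake, use and synthesis in the pups. It followed the expression of sialic acid genes in colon and brain, and also took measurements in milk, plasma, urine and liver. Untreated Sprague Dawley rat pups were sampled at 9 ages, at embryonic day 21 (E21) and on postnatal day (PND) 1, 2, 3, 5, 7, 10, 15 and 22. Total RNA of rinsed colon and of brain tissue was read on a 1-colour bead array, which gave 53 colon samples (5 at E21, 6 at each later age) and 54 brain samples (6 at each age). The E21 pups were taken by Caesarean section from 1 dam, which means that the effect of age at E21 and that of its dam cannot be told apart, and the sources used here do not state the litters of the later samples or whether tissue was pooled.

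The extracellular matrix is the protein scaffold outside cells. Fibril-forming collagens give tissues tensile strength, basement membrane collagens and laminins underlie epithelia and blood vessels, elastin and fibrillins give recoil, and metalloproteinases and their inhibitors govern its turnover. In the gut wall most of it is made by fibroblasts and smooth muscle cells below the epithelium, whereas the brain holds fibrillar collagen mainly in the meninges and around vessels and otherwise has a matrix rich in proteoglycans.

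Signals are given in normalized bead units, as the lowest, median and highest of the samples of an age. Changes are differences of mean log2 signal ± SE from a limma fit with one mean per age and tissue, and "passed" means an adjusted p (Benjamini-Hochberg over all 22523 probes) under 0.01. The dimmest signal detected on an array (detection p under 0.05, against its negative control beads) was 65.6 to 76.9 units, and lower signals are not read as levels. Of the 86 member probes, 36 were detected in every colon sample, 27 in every brain sample and 4 in no sample of either tissue, and 57 (colon) and 45 (brain) were so in every sample of at least 1 age. The number of arrays limits the precision, and the p-values measure the spread between samples that may share litters.

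A few libraries stood apart. In colon at PND22, replicates 1 and 2 had Col1a1 signals of 1440 and 1495, against 491 to 672 in the other 4 replicates, and similarly high Postn (3275 and 2981 against 1123 to 1774). In colon at E21, the library of replicate 4 had a summed signal of 6 neuronal genes of 10554 units, against 2199 to 2497 in the other 4 libraries, and a summed signal of 4 glial genes of 971 against 226 to 256. That E21 library also had a summed signal of 5 choroid plexus genes of 685, against 279 to 303. Results that rest on these libraries are given with and without them. At PND22 the tissue labels held in the markers. The summed signal of 6 epithelial genes was 58794 to 66165 in colon and 404 to 448 in brain, and that of 6 neuronal genes was 39709 to 46547 in brain and 807 to 2035 in colon. In brain at PND15, replicate 6 had an epithelial sum of 787, against 393 to 457 in the other replicates. Its summed signal of 6 smooth muscle genes was 759, against 439 to 492. Without this library 8 member probes passed from PND7 to PND15 in brain and 4 from PND15 to PND22, against 8 and 6 with it.

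Over the 9 ages, 56 member probes passed the test in colon, where 36.7% of all probes did, and 37 passed in brain, where 35.4% of all probes did. The ratio of the highest to the lowest age mean had a median of 2.05 among the 56 colon probes and 1.65 among the 37 brain probes. In colon the highest age was PND15 for 14 of the 56 probes, PND1 for 13, PND5 for 9 and PND7 for 7, and PND22 for 1. In brain the order was turned towards birth, with E21 the highest age for 20 of the 37, PND1 for 5 and PND22 for 5. The highest ages were not tallied over all probes, so these counts have no background to be set against, and E21 is the age of 1 dam. The plot of 8 genes by age shows the courses described below.

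**Figure D1:**
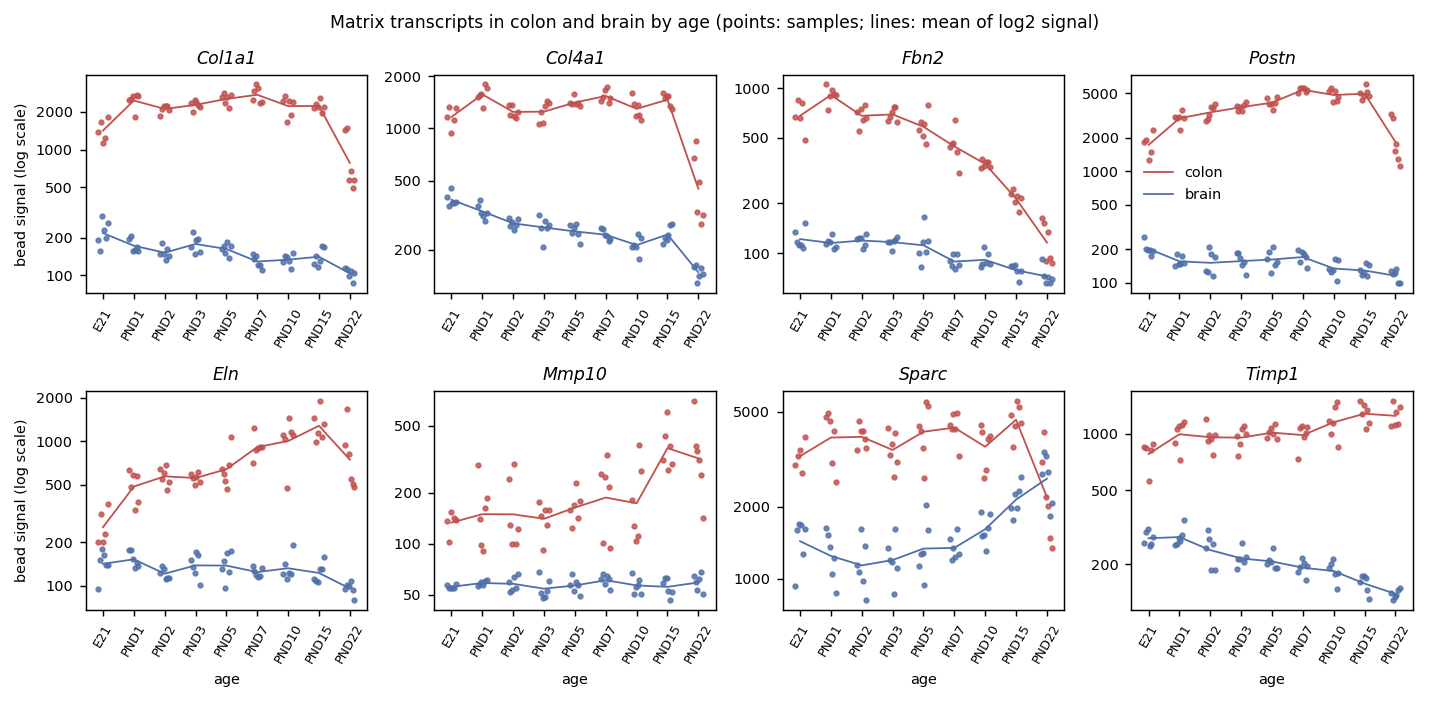
Bead signal (log axis) of 8 matrix genes in each colon (red) and brain (blue) sample at 9 ages; lines join the age means of log2 signal. Col1a1, Col4a1, Postn and Sparc fall in colon between PND15 and PND22, Fbn2 falls from PND1 onwards, and colon Timp1 is between 1105 and 1493 at PND22, close to its PND15 values.

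In colon the main event was at the end of the suckling period. Between PND15 and PND22, 43 member probes were lower and 1 was higher, against 9.27% of all probes that were lower and 9.13% that were higher (18.4% in all). The median log2 change of the 86 probes was -0.22, against 0.01 over all probes. Fibril-forming collagens, the basement membrane collagen Col4a1, fibronectin, the small proteoglycans of collagen fibrils and periostin all took part. As these are whole-tissue samples, fewer cells of a type and less RNA per cell cannot be told apart.

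**Figure D2:**
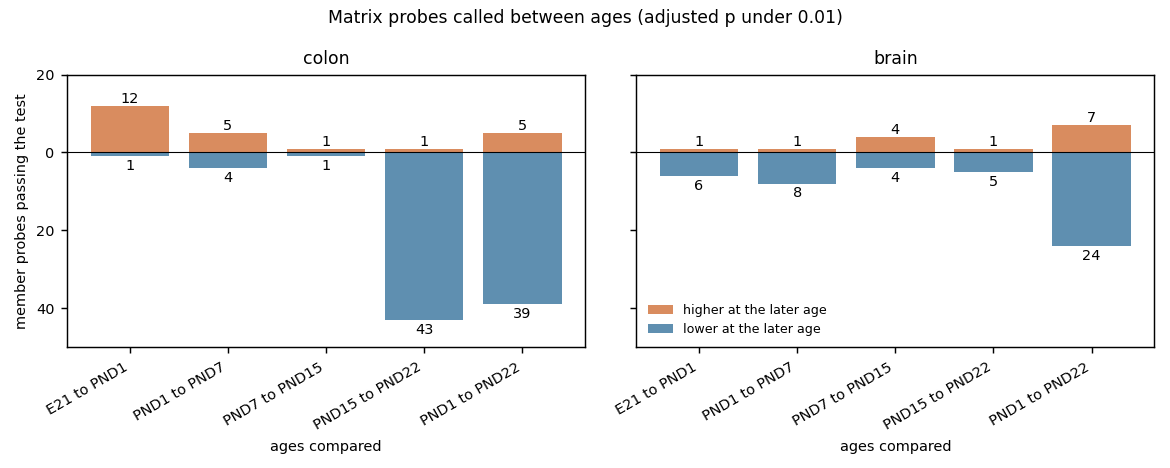
Number of member probes that passed the test (adjusted p under 0.01) between pairs of ages in colon (left) and brain (right), above the line where the later age was higher and below it where it was lower. The step from PND15 to PND22 in colon holds 43 of the lower probes, and no single step in brain holds more than 8.

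Of the 9 fibril-forming collagen probes, 6 were lower at PND22 than at PND15 in colon (Col1a1, Col1a2, Col3a1, Col5a1, Col5a2 and Col27a1) and none was higher. Col1a1 and Col1a2 encode the chains of type I collagen, the main fibre of connective tissue. Col1a1 had signals of 1955, 2198 and 2592 (lowest, median and highest of 6) at PND15 and of 491, 623 and 1495 at PND22, a log2 change of -1.50 ± 0.17 (2.84-fold lower, adjusted p = 2e-10). The groups did not overlap, and without replicates 1 and 2 of PND22 the change was -1.96. Col3a1, the type III chain of distensible tissues, went from 2597, 4318 and 5248 to 786, 1187 and 2437, with a log2 change of -1.69 ± 0.24 (adjusted p = 1.17e-07). Col5a1, whose type V collagen starts and thins the fibrils, changed by -1.55 ± 0.16 and Col5a2 by -1.53 ± 0.17. Col1a2 changed by -0.95 ± 0.19, and its groups overlapped, since PND22 ranged from 4448 to 18521 against 13751 to 18179 at PND15.

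Among the 7 basement membrane and network collagen probes, 4 were lower at PND22 (Col4a1, Col15a1, Col18a1 and Col8a1). Col4a1, a chain of the type IV network found under every epithelium and endothelium, went from 1297, 1516 and 1590 at PND15 to 284, 410 and 846 at PND22. Its log2 change of -1.70 ± 0.14 (3.25-fold lower, adjusted p = 7.42e-14) had the largest size among the 86 probes in this step. All 6 PND22 samples lay below all 6 PND15 samples. Col15a1 and Col18a1, which carry glycosaminoglycans at the edge of basement membranes, changed by -1.05 ± 0.17 and -0.75 ± 0.13. Col8a1, a short-chain network collagen of vessels and smooth muscle, changed by -0.80 ± 0.21, and this call was lost without PND15 replicate 4 or PND22 replicate 3, 4 or 5 (adjusted p up to 0.0208).

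Of the 5 laminin probes 2 passed, Lamb2 (-1.01 ± 0.12) and Lamc1 (-0.36 ± 0.09). Lamb2, a beta chain of mature basement membranes, went from 573, 669 and 839 at PND15 to 214, 307 and 546 at PND22, and the groups did not overlap. The Lamc1 call, on signals near the detection limit, was lost without PND22 replicate 6 (adjusted p = 0.0117). Of the 9 other collagen probes, Col14a1, Col6a1 and Col7a1 were lower. Col6a1, a chain of the beaded microfibrils around cells, went from 1622, 2004 and 2060 to 543, 684 and 1460 (-1.28 ± 0.14). The probe for its partner chain Col6a2 was detected in 1 of 53 colon samples and gave no reading of that gene.

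The matricellular and proteoglycan genes fell together in colon at PND22: 6 of 7 probes passed (Fn1, Dcn, Postn, Lum, Sparc and Bgn), and the median log2 change of the 7 was -1.43. Postn encodes periostin, a collagen-binding protein of fibroblasts. Its signals were 4362, 4877 and 6013 at PND15 and 1123, 1645 and 3275 at PND22, a log2 change of -1.44 ± 0.15 (adjusted p = 6.4e-11). The groups did not overlap. Fn1, fibronectin, went from 1853, 2333 and 2420 to 484, 672 and 1539 (-1.53 ± 0.18). Dcn and Lum, the proteoglycans decorin and lumican that space collagen fibrils, changed by -1.48 ± 0.17 and -1.43 ± 0.16, and Sparc, a collagen-binding glycoprotein, by -1.07 ± 0.18. Only the osteopontin gene Spp1 did not pass in this group, as its signal was already 65.9 to 73.9 at PND15.

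Of the 12 elastic fibre probes 10 were lower at PND22, with a median log2 change of -0.77 over the 12. Fbn1, the fibrillin of mature microfibrils, went from 539, 599 and 857 to 171, 232 and 502 (-1.31 ± 0.18). The cross-linking enzyme gene Lox changed by -1.15 ± 0.15. Elastin (Eln) itself changed by -0.78 ± 0.22, on the overlapping ranges 994 to 1916 and 479 to 1669, and the call was lost without PND15 replicate 1, 4 or 6 or PND22 replicate 4, 5 or 6 (adjusted p up to 0.0305). Without PND22 replicates 1 and 2 it changed by -1.16.

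Among the groups of genes, the Mmp probes passed in the smallest share, but many of them had signals close to background. In colon Mmp1, Mmp8, Mmp20, Mmp21 and Mmp27 were each detected in at most 2 of 53 samples. Of 20 Mmp probes, 4 were lower (Mmp14, Mmp16, Mmp11 and Mmp23) and 1 was higher (Mmp3), and the median log2 change was -0.04. Mmp14, the membrane-bound collagenase that activates other metalloproteinases, went from 1092, 1334 and 1759 to 491, 654 and 1092 (-0.95 ± 0.13), ranges that touched at 1092. Of 14 ADAMTS family probes, 6 were lower, among them Adamts2, which trims the end of procollagen (-0.75 ± 0.13). Timp2 (-0.94 ± 0.15) and Timp3 (-0.42 ± 0.09) were lower, whereas Timp1 was 1059, 1313 and 1506 at PND15 and 1105, 1222 and 1493 at PND22 and did not pass.

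**Figure D3:**
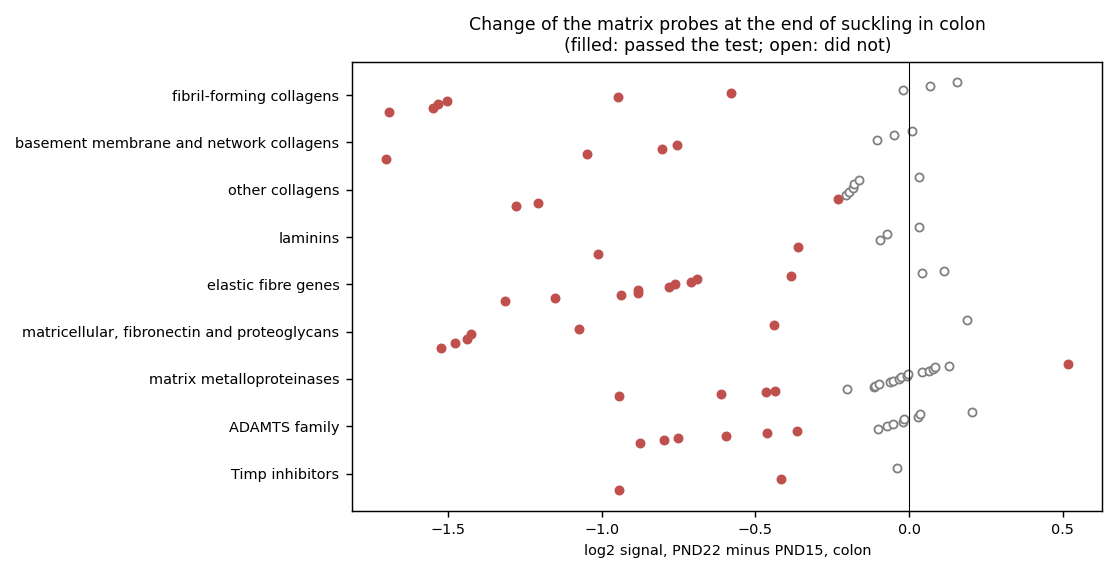
Log2 change of each of the 86 member probes from PND15 to PND22 in colon, by role; filled points passed the test. Fibril-forming collagens and the matricellular group reach -1.69 and -1.53, while most metalloproteinase probes lie near 0, many of them with signals close to background.

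The 43 lower probes did not fall equally in the 6 PND22 libraries. Their median difference from the PND15 mean was -0.43 in replicate 1 and -0.33 in replicate 2, and -1.07 to -1.30 in replicates 3 to 6. Replicates 1 and 2 were the highest pair of the 6 for 37 of the 43 probes. In replicates 3 to 6, all 43 probes lay below every PND15 sample, while in replicate 1 this held for 33 and in replicate 2 for 26. The probes were picked as lower in these same libraries, so that lying below PND15 is partly set by the choice. The same counts were not taken over all lower probes of the array, and the split of the libraries cannot be read as particular to matrix genes. Without replicates 1 and 2, 43 probes were lower and none was higher, with 19.3% of all probes passing.

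**Figure D4:**
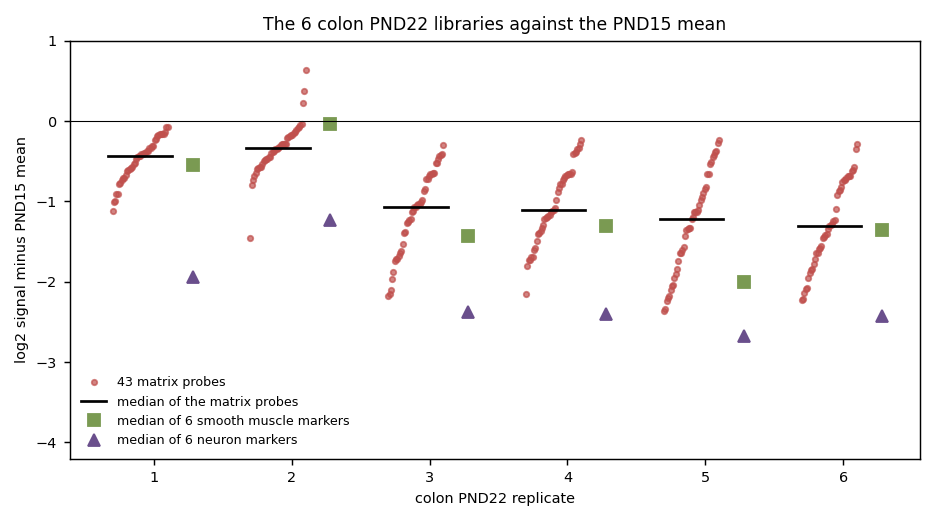
Log2 signal of the 43 lower member probes in each colon PND22 library, less the PND15 mean of the probe (points; bar, median), with the medians of 6 smooth muscle and 6 neuronal marker genes. The member medians are -0.43 and -0.33 in replicates 1 and 2 and between -1.07 and -1.30 in the other 4, and the smooth muscle medians are ordered alike between these 2 sets of libraries.

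Markers of the muscle layer and of its nerves moved at the same step. Of 6 smooth muscle markers 5 were lower at PND22 (median log2 change -1.05), and their summed signal went from 34932 to 39140 at PND15 to 14507 to 33741 at PND22. All 6 neuronal markers were lower (median -2.18), with sums of 4247 to 7669 at PND15 and 807 to 2035 at PND22, and 5 of 7 fibroblast markers were lower (median -0.55). Of 6 epithelial markers 3 were higher, and the epithelial sum went from 43688 to 50386 up to 58794 to 66165, whereas 1 of 6 endothelial markers was lower. By library, the smooth muscle median against PND15 was -0.55 and -0.03 in replicates 1 and 2 and -1.31 to -2.01 in replicates 3 to 6. The part of these cell types in the fall of the matrix genes was not tested.

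Genes that serve the matrix but are outside the members were read from 4 lists. Of 17 measured genes for collagen folding and processing, 10 were lower in colon at PND22 than at PND15 and none was higher. Plod2, which hydroxylates lysines for cross-linking, changed by -1.41, Plod1 by -1.02 and Pcolce, which speeds removal of the procollagen end, by -0.93, whereas the collagen chaperone Serpinh1 (-0.26) did not pass. Of 19 other matrix genes 9 were lower (Vcan -0.61, Thbs2 -0.78) and none was higher. Of 12 genes of TGF-beta signalling, the main growth factor pathway that induces collagen, 6 were lower and none was higher, with Tgfb2 at -1.41 and Tgfb1 at -0.21 (not passed). Of 18 matrix receptor genes, 4 were lower (Itga1 -1.19, Itgb1 -0.85) and 2 were higher (the collagen receptor Ddr1 of epithelia, 0.38, and the syndecan gene Sdc1).

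Over the whole of suckling, from PND1 to PND22, 39 member probes were lower and 5 higher in colon, against 14.7% and 12.1% of all probes (26.9% in all). Fbn2, the fibrillin of growing tissue, had the largest change and fell by steps. Its signals were 732, 917 and 1052 at PND1, 307, 450 and 637 at PND7, 178, 218 and 245 at PND15 and 87.3, 114 and 163 at PND22. Every one of these 4 ages was apart from the next without overlap, and the log2 change from PND1 to PND22 was -2.97 ± 0.14 (7.83-fold lower, adjusted p = 2.76e-24). The second probe for Fbn2 was detected in no sample and says nothing of the gene. Col5a1 (-2.26 ± 0.16), Col14a1 (-2.05 ± 0.15), Fn1 (-1.81 ± 0.18), Col4a1 (-1.80 ± 0.14) and Col6a1 (-1.76 ± 0.14) followed. Scaling each array to its 75th percentile moved the median of all probes by 0.22 in this comparison and left 32 members lower and 7 higher. Over this longer span 0 of 6 smooth muscle markers passed (median log2 change -0.23), and their sum was 21865 to 29051 at PND1 and 14507 to 33741 at PND22. Of 6 neuronal markers 3 were lower (median -0.97), of 7 fibroblast markers 5 were lower and 1 was higher, of 6 endothelial markers 4 were lower, of 3 markers of dividing cells 2 were lower, and of 6 epithelial markers 4 were higher.

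From E21 to PND1 more member probes were higher than lower in colon. The E21 pups of both tissues were taken by Caesarean section from 1 dam. Birth, dam and delivery therefore cannot be told apart at this step. Between E21 and PND1, 12 member probes were higher and 1 was lower, against 1.74% and 2% of all probes (3.73% in all). Col1a1 was 1370, 1656, 1124, 1232 and 1815 in the 5 E21 samples and 1829, 2576 and 2715 at PND1, with a log2 change of 0.79 ± 0.17 (adjusted p = 0.00162) and no overlap. Eln was 199, 315, 200, 226 and 370 at E21 and 335, 529 and 638 at PND1 (0.94 ± 0.23), and Postn was 1820, 1892, 1263, 1482 and 2365 at E21 and 2348, 3028 and 3579 at PND1 (0.79 ± 0.16), and both pairs of ranges overlapped. The rises of Fbn1 (0.80), Col17a1 (0.77), the hemidesmosome collagen, and Col6a1 (0.61) passed as well. Spp1, osteopontin, went the other way, from 500, 462, 381, 701 and 469 at E21 to 171, 202 and 292 at PND1 (-1.25 ± 0.23, adjusted p = 0.000123). Mmp7, matrilysin of epithelial cells, was not detected in any E21 sample and was detected in 5 of 6 samples at PND1 (adjusted p = 0.00156). Its PND1 mean, with the undetected sample at its measured signal, was about 1.32-fold above the detection limit.

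These birth calls depended in part on the E21 library that stood apart. Without colon E21 replicate 4, 8 probes passed (7 higher, 1 lower), and Eln (0.85, adjusted p = 0.0241), Fbn1 (0.58, adjusted p = 0.0365) and Col6a1 (0.54, adjusted p = 0.019) did not. Leaving out PND1 replicate 2 also left 8 (7 higher, 1 lower). The call for Col17a1 was kept without either, but was lost without any of E21 replicates 2, 3 and 5 and PND1 replicates 5 and 6 (adjusted p up to 0.0171). Postn, Col1a1, Mmp7 and Spp1 passed whichever single sample was left out. Scaling each array to its 75th percentile shifted the median of all probes by -0.25 at this step and gave 16 higher and 6 lower members, so that 72.7% of the calls were higher, against 92.3% with quantile normalization. Of these, 11 probes passed under both scalings.

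In the first week the elastic fibre genes Loxl1 and Eln rose in colon, and the fibrillin gene Fbn2 fell. Between PND1 and PND7, 5 member probes were higher and 4 lower, against 4.16% and 4.75% of all probes (8.9% in all), so that the share of members, 10.5%, was near the background. Loxl1, which cross-links elastin, was 178, 227 and 287 at PND1 and 360, 472 and 547 at PND7 (0.97 ± 0.15, adjusted p = 2.15e-06), Eln was 335, 529 and 638 and then 708, 910 and 1232 (0.91 ± 0.22), and Adamts2 was 123, 141 and 166 and then 221, 293 and 317 (0.93 ± 0.13). All 3 had separate ranges at the 2 ages. The second Loxl1 probe did not pass (-0.03), and with the mean of both probes the adjusted p was 0.0223. Without PND1 replicate 4 or PND7 replicate 2 the adjusted p of Eln was 0.0127 or 0.0109. Postn rose by a further 0.85 ± 0.15 to 5068, 5464 and 5606, and Adamts19 by 0.35, a call lost without any of 7 of the 12 samples (adjusted p up to 0.0311).

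Spp1 fell again in that week, to 68.4, 88.1 and 120 (-1.21 ± 0.22), as did Fbn2 (-1.03 ± 0.14), Col14a1, a collagen that decorates fibrils (-0.77 ± 0.15), and Adamts7 (-0.40 ± 0.10). The call for Adamts7 did not hold in every fit that left out a single sample. From PND7 to PND15 1 member probe was higher and 1 lower, against 1.51% and 1.91% of all probes (3.43% in all). Fbn2 fell by another 1.05 on the log2 scale, and Col8a1 rose from 147, 189 and 251 to 235, 345 and 574 (0.86 ± 0.21), a call that was lost without any of 8 of the 12 samples (adjusted p up to 0.0344). With scaling to the 75th percentile, which moved the median of all probes by 0.13, only the fall of Fbn2 passed. The other 84 member probes did not pass in this step.

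The neighbouring protease genes Mmp12, Mmp3 and Mmp10 were among the 5 that ended higher at PND22 than at PND1 in colon. They lie in this order on rat chromosome 8, with the Mmp1 member between the last 2, in a row of 9 member genes that runs from Mmp13 to Mmp7. Mmp10, the gene of stromelysin 2, was detected in all 53 colon samples and in no brain sample. It was 91.4, 152 and 292 at PND1, 273, 345 and 599 at PND15 and 143, 334 and 702 at PND22, with a log2 change from PND1 to PND22 of 1.10 ± 0.32 (adjusted p = 0.00438). The PND1 and PND22 ranges overlapped, and without PND22 replicates 1 and 2 the change was 0.75 (adjusted p = 0.082). It also missed the threshold without PND1 replicate 3 or 4 or without PND22 replicate 1 or 2 alone (adjusted p up to 0.0278). Mmp3, stromelysin 1, was below background in all PND1 samples and detected in 4 of 6 at PND22 (about 1.28-fold above the detection limit, adjusted p = 3.1e-07). Mmp12, macrophage elastase, was likewise undetected at PND1 and detected in 3 of 6 at PND22 (about 1.12-fold, adjusted p = 0.000642). Both folds take the undetected PND22 samples at their measured signals and are not strict lower bounds. Of 5 macrophage and leukocyte markers, Cd14 and Cd74 were higher and Aif1 lower over the same span, and their summed signal went from 1071 to 1539 at PND1 to 1631 to 2299 at PND22 without overlap. Their part in these rises was not tested. The other 6 genes of the row did not pass. The remaining rises were Adamts2 (0.50, and 0.28 with adjusted p = 0.102 without PND22 replicates 1 and 2) and the ADAMTS-like gene Adamtsl4 (0.23, and 0.19 with adjusted p = 0.0685).

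The stretches before the starts of these 3 genes are shown because each holds the same pair of motifs. The sequences are from RefSeq on build GRCr8, plus strand, and run from 150 bases to 1 base before the start that its promoter windows use. For Mmp3 that start lies 14 bases inside the annotated gene, and for the other 2 it is the first base of the gene. Capitals mark TGAGTCA, the site bound by the AP-1 factor, and TATAAA, the TATA box.
Mmp12, chr8:12866502-12866651: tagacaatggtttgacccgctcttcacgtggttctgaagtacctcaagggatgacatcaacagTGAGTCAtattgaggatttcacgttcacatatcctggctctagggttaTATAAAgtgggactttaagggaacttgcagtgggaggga
Mmp3, chr8:12925131-12925280: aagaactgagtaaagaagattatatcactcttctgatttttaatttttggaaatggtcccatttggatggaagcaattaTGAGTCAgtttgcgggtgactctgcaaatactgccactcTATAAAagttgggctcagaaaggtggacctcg
Mmp10, chr8:12974557-12974706: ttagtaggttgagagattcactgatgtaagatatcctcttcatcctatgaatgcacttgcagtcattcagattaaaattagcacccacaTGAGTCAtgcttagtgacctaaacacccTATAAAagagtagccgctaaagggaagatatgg

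The first base of TGAGTCA lies 87 bases before that start in Mmp12, 71 in Mmp3 and 61 in Mmp10, and that of TATAAA lies 39, 32 and 33 bases before it. RefSeq promoter windows were held for 61 of the 83 member genes. TGAGTCA or its reverse complement TGACTCA was present in the 250 bases before the start of 7 of these 61 (11.5%), against 4.05% of 33469 windows of all genes. Of the 7, 6 were genes of the row on chromosome 8 (Mmp1, Mmp3, Mmp7, Mmp10, Mmp12 and Mmp13), and the other was Col6a1. Among those, Mmp1, Mmp7 and Mmp13 did not pass from PND1 to PND22. Their windows hold TATAAA too, so that the pair of motifs is not particular to the 3 genes shown. TATAAA on the gene's strand was present in 14 of the 61 (23%), against 8.06% of all windows. A match of letters is a description and not a measured site.

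Col1a2, which fell from PND1 to PND22 in colon (-0.97 ± 0.19) and in brain, is shown as 1 example of the genes lower in both tissues. The stretch from 250 to 151 bases before its annotated start (GRCr8, plus strand) holds, in capitals, ATTGG, the reverse complement of the CCAAT box, and TATAAA, with first bases 221 and 170 bases before the start.
Col1a2, chr4:33518307-33518406: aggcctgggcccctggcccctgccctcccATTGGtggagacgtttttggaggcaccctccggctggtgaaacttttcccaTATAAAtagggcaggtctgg
CCAAT on either strand was present in 15 of the 61 member windows (24.6%) and in 34% of all windows. Among the genes lower in both tissues whose windows were held, it was found for Adamts7, Col1a2, Col4a1 and Lum, and TATAAA for Col1a2 and Postn. Windows were held for 61 of the 83 member genes, and those of the genes lower in both tissues were not counted. Whether the motifs of Col1a2 are typical of those genes therefore cannot be read from these values. The 250 bases before the start of Col1a2 hold neither TGAGTCA nor TGACTCA.

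In brain more member probes were lower than higher at the end of the period. From PND1 to PND22, 24 member probes were lower and 7 higher, against 14.2% and 12.4% of all probes (26.6% in all). At birth 7 passed (1 higher, 6 lower), where 3.59% of all probes did (1.47% higher, 2.12% lower). The lower ones include Mmp20, which was detected in no sample of either tissue, and without PND1 replicate 2 only 4 passed. From PND1 to PND7, 9 passed (1 higher, 8 lower), where 13.3% did (6.34% higher, 6.97% lower), and from PND7 to PND15, 8 passed (4 higher, 4 lower), where 10.4% did (5.18% higher, 5.26% lower). These shares of the members, 10.5% and 9.3%, were below the background. From PND15 to PND22, 6 passed (1 higher, 5 lower), where 3.23% did (1.9% higher, 1.33% lower). Leaving out any 1 of the 12 samples lowered this count to between 2 and 4, with 2 passing without PND22 replicate 4 and 3 without PND15 replicate 3 or 4 or PND22 replicate 3 or 6. With scaling to the 75th percentile the last of these splits was 0 higher and 3 lower, and that of PND7 to PND15 was 2 higher and 4 lower.

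Of the 9 fibril-forming collagen probes 6 were lower in brain at PND22 than at PND1, and Col11a2 was higher. Col3a1 was 249, 310 and 517 at E21, 158, 213 and 292 at PND1 and 95.2, 104 and 122 at PND22, a log2 change from PND1 of -0.98 ± 0.15 (adjusted p = 2.91e-07). Its fall at birth (-0.66) passed but was lost without E21 replicate 3 or 5 or PND1 replicate 2 or 4 (adjusted p up to 0.0228). Col1a2 changed by -0.73 ± 0.16 from PND1 to PND22. Col4a1 declined over the whole series, from 359, 376 and 451 at E21 to 294, 326 and 389 at PND1, 215, 237 and 282 at PND15 and 128, 151 and 163 at PND22 (-1.16 ± 0.08 from PND1, adjusted p = 2.46e-18). Its last step was -0.72 ± 0.08, with separate ranges. Laminin, the partner of type IV collagen in basement membranes, had 1 lower chain in brain from PND1 to PND22 (Lama1, -0.32 ± 0.09, lost without PND1 replicate 2), and the endothelial markers did not pass (0 of 6).

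Of the 3 Timp probes 2 were lower in brain at PND22 than at PND1 and none was higher, of the 20 Mmp probes 3 were lower and 2 higher, and of the 14 ADAMTS family probes 1 was lower and 1 higher. Timp1, a secreted inhibitor, was 254, 272 and 346 at PND1 and 129, 139 and 148 at PND22 (-1.01 ± 0.09, adjusted p = 1.12e-13). Mmp14 was 388, 437 and 512 at PND1 and 190, 271 and 283 at PND22 (-0.81 ± 0.10), with a change of -0.56 between PND7 and PND15. Adamts7 was 121, 128 and 138 at PND1 and not above background in any sample of PND15 or PND22. It was at least 1.89-fold lower at PND22 (adjusted p = 4.87e-19). Timp2 rose at birth (0.55 ± 0.12), a call lost without E21 replicate 2, PND1 replicate 1 or PND1 replicate 2 (adjusted p up to 0.0119), and its fall from PND1 to PND22 (-0.40) was lost without any of 7 of the 12 samples (adjusted p up to 0.0512).

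In brain 7 probes ended higher. Sparc, which glia and endothelium of the brain express, was 869, 1292 and 1625 at PND1, 1763, 2120 and 2666 at PND15 and 1839, 2771 and 3382 at PND22 (1.07 ± 0.16, adjusted p = 1.44e-07). The PND1 samples lay below all PND15 and PND22 samples. Col11a2, a minor chain of cartilage-type fibrils, was 68.4, 76.1 and 82.7 at PND1 and 114, 136 and 147 at PND22 (0.81 ± 0.09, adjusted p = 3.65e-11), and it rose in both later steps (0.48 and 0.35). Adamts4, a protease of brain proteoglycans, was detected in 1 of 6 samples at PND1 and in all 6 at PND22 (0.49 ± 0.07), and Mmp17, a membrane-anchored metalloproteinase, rose by 0.46 ± 0.13. Fbln1, the glycoprotein fibulin 1, first fell at birth from 626, 736 and 807 to 344, 400 and 465 (-0.88 ± 0.10, adjusted p = 1.59e-09) and then rose to 502, 533 and 634 at PND22 (0.45 ± 0.10). Mmp3 and Col4a3 passed at signals near or below the detection limit and have no fold here. The call for Mmp17 was lost without PND1 replicate 4 or PND22 replicate 2 or 5 (adjusted p up to 0.0129).

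Other steps in brain were small. In the first week Adamts7 (-0.72), Col6a1 (-0.66), Timp1 (-0.55), Col4a1 (-0.45), Col1a1 (-0.42) and Col18a1 (-0.39) fell and Loxl1 rose (0.70 ± 0.10), with its second probe at 0.04 (not passed). The fall of Col1a1 in that week was lost without PND1 replicate 1 or 2 or PND7 replicate 5 or 6 (adjusted p up to 0.0178). Col6a1 rose again from PND7 to PND15, from 103, 112 and 131 to 152, 181 and 190 (0.60 ± 0.10). At birth Lum (-0.50), Col14a1 (-0.44) and Bgn (-0.32) fell, the last with a call lost without E21 replicate 1 or 5 or PND1 replicate 1 (adjusted p up to 0.0212). From PND15 to PND22 the changes of Col11a2, Loxl1, Mmp16 and Col1a1 passed but were each lost without any of 7 or 8 of the 12 samples (adjusted p up to 0.0496), while those of Col4a1 and Lum (-0.46) passed whichever sample was left out.

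Other cell types of the brain moved over the same ages. All 4 astrocyte and oligodendrocyte markers were higher at PND22 than at PND1 (summed signal 571 to 844 and 6666 to 9480), 3 of 6 markers of meninges and pericytes were lower (sum 1073 to 1231 and 668 to 739), and at each of these ages 1 of the 6 was detected in no sample. Of 6 neuronal markers 4 were higher and 2 lower. Of 5 choroid plexus markers 1 was higher and 2 were lower (sum 4450 to 5872 and 2381 to 3482), of 3 markers of dividing cells 2 were lower (389 to 522 and 203 to 229), and of 5 macrophage and leukocyte markers 2 were higher (599 to 805 and 1096 to 1208). The sums of these 3 lists did not overlap between the ages. The part of these cell types in the matrix changes was not tested. Among genes outside the members, the proteoglycan gene Vcan of the young brain changed by -1.72, while Bcan (0.57) and Hapln1 (0.66) of the perineuronal matrix rose. Of the 17 collagen folding and processing genes 7 were lower and 3 higher in brain, and of 12 TGF-beta signalling genes 2 were lower (Tgfb2 -0.74) and 2 higher.

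The courses in the 2 tissues were then compared directly. Of the 86 probes, 20 were lower from PND1 to PND22 in both tissues, 1 was higher in both (Mmp3), and 2 passed in opposite directions (Sparc and Fbln1). These are 23.3%, 1.16% and 2.33% of the members, and the shares over all probes on the array were 7.2%, 3.99% and 2.97%. Mmp3 was detected in 1 of 54 brain samples, so that its brain change is one of background signals. A test of the difference itself (colon change less brain change) passed for 36 probes, 30 with the colon change below that of brain and 6 above, where 22.7% of all probes passed (11.6% and 11.1%). Sparc differed by -1.90 ± 0.25 (adjusted p = 4.72e-10): its colon signals went from 2548, 4368 and 4942 at PND1 to 1342, 2109 and 4105 at PND22, while brain rose as given above. Fbn2 differed by -2.30 ± 0.17, Col5a1 by -1.71 ± 0.19, Col14a1 by -1.61 ± 0.18 and Adamts1, a protease of versican, by -1.56 ± 0.16. All of these fell more in colon, and brain Adamts1 was 73.1 to 122 at PND1 and 90.2 to 105 at PND22. Spp1 differed by -1.82 ± 0.30, with colon from 171, 202 and 292 to 70.1, 81.2 and 85.3 and brain from 99.9, 136 and 158 to 101, 178 and 350.

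**Figure D5:**
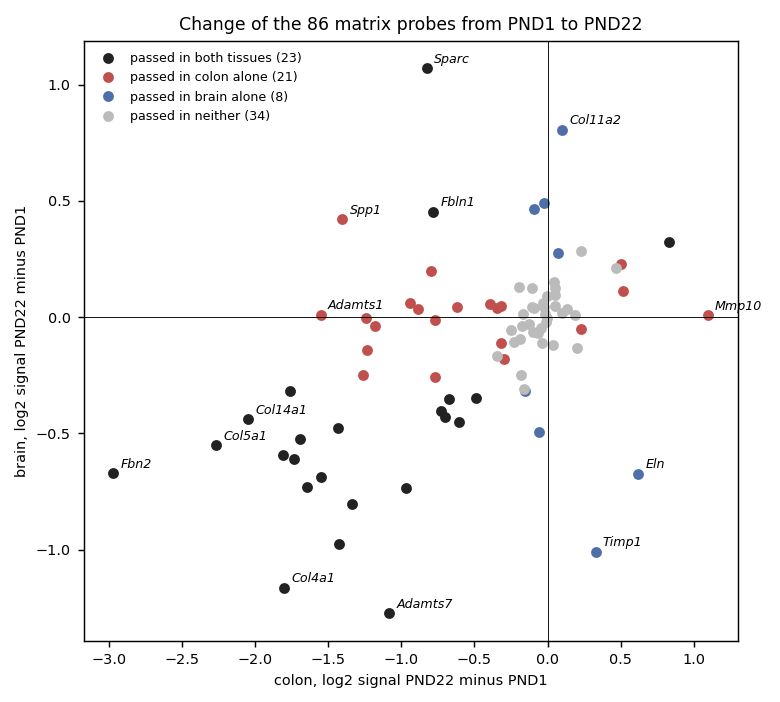
Log2 change from PND1 to PND22 of the 86 member probes in colon (horizontal) and brain (vertical), coloured by where the change passed the test. Of the 23 probes that passed in both tissues (26.7% of members, against 14.2% of all probes) 20 were lower in both (23.3% against 7.2%). Sparc and Fbln1 lie upper left (lower in colon, higher in brain), and Timp1 and Eln lie lower right.

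Timp1 and Eln went apart the other way. Timp1 was 728, 1082 and 1152 at PND1 and 1105, 1222 and 1493 at PND22 in colon (0.33 ± 0.12, not passed) and fell by 1.01 on the log2 scale in brain, a difference of 1.34 ± 0.16 (adjusted p = 4.85e-12). Eln differed by 1.29 ± 0.26 (adjusted p = 2.58e-05), with brain signals of 133, 148 and 178 at PND1 and 79.8, 97.0 and 107 at PND22. Without colon PND22 replicates 1 and 2 this was 0.92 (adjusted p = 0.00213). Col2a1, the cartilage collagen, was at least 1.24-fold lower in brain at PND22 than at PND1 (adjusted p = 1.21e-06). In colon it was detected in 1 of 53 samples, which gave no colon change to set against this. The difference for Mmp10 (1.09 ± 0.33), which was detected in 0 of 54 brain samples, was lost without the same 2 libraries (0.74, adjusted p = 0.0901), as was that for Mmp3 (0.29, adjusted p = 0.141). Under scaling to the 75th percentile the median of all probes shifted by 0.29 in this comparison, and 8 members were above and 24 below.

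At PND22, 44 member probes were higher in colon and 10 higher in brain, against 19.3% and 19% of all probes (38.4% in all). Postn was 1123, 1645 and 3275 in colon and 98.2, 120 and 131 in brain, a difference of 3.99 ± 0.14 on the log2 scale (15.9-fold, adjusted p = 1.01e-46). Col3a1 (3.52 ± 0.21), Col14a1 (3.17 ± 0.13), Timp1 (3.17 ± 0.11), Lum (3.01 ± 0.13) and Eln (2.97 ± 0.19) were the next. Mmp10, below background in brain, was at least 4.71-fold higher in colon (adjusted p = 1.22e-16). Higher in brain were Mmp16, a membrane-type metalloproteinase of the nervous system (153, 161 and 172 against 56.1, 67.1 and 85.2 in colon, a difference of -1.24 ± 0.09, with 2 of 6 colon samples detected), Spp1 (-1.14 ± 0.21), Timp2 (-0.96 ± 0.14), Mmp17 (-0.68 ± 0.11, detected in 3 of 6 colon samples), Col11a2 (-0.62 ± 0.09) and Adamts4 (-0.44 ± 0.07, detected in 1 of 6). For Mmp16, Mmp17 and Adamts4 most or some colon signals are therefore background, and the size of the difference is not exact. Without colon PND22 replicates 1 and 2, 39 were higher in colon and 9 in brain, where 37.1% of all probes passed, against 38.4% with all 6.

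Of the 86 members, 34 (39.5%) passed in neither tissue from PND1 to PND22, as did 60.7% of all probes. Many of these had signals close to background in both tissues, among them Mmp1, Mmp8, Mmp20 and Mmp27, each detected in at most 2 samples of a tissue. For such probes a change was not detectable at these signals.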

How the data were processed

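The authors scanned labelled RNA of each sample on an Illumina rat expression bead array and deposited, per sample, the bead intensity of each probe as summarised by their scanner software without normalization, and a detection p-value against the negative control beads. The deposited tables hold no comparison columns, and a table of the authors' quantile-normalized intensities, on a linear scale, served for an alternative. Its colon values matched a quantile normalization within colon (log2 differences up to 0.03). Its brain values differed from one within brain by a median of 0.019 and by up to 0.228. Intensities of the 53 colon and 54 brain arrays were quantile normalized together, set to a floor of 1 and put on the log2 scale. Probes were named from the platform annotation, and 8730 of 22523 probes carried no symbol. The authors had removed 1 further E21 colon array as an outlier, which is not used here. Quantile normalization gives all arrays the same distribution of signals, so that a shift of the whole distribution between ages would not be seen.

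In R 4.3.3 with limma 3.58.1 each tissue was fitted with 1 mean per age and a spread shared by all ages (lmFit, eBayes), and p-values were adjusted by Benjamini-Hochberg over all 22523 probes, with adjusted p under 0.01 as the threshold. The study's methods name an ANOVA at the same level of p and no adjustment. The difference between tissues and that of their changes came from 1 fit over both. The smallest 2-sided p of an exact permutation test is 0.00216 for 6 against 6 samples. A probe not detected in any sample of the dimmer group has a lower bound of its fold, computed from the lowest detected signal of each array, and both its measured means stand in the tables. Undetected samples of the brighter group entered at their measured signals, and the bound is then approximate (Mmp3, Mmp12 and Mmp7 in colon). The fit was tested on simulated data. Figures were drawn with Python 3.11.15 and matplotlib 3.10.9.

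The members and all gene lists were chosen with earlier results of these data known. Named were, in each comparison, up to 6 of the largest rises and 6 of the largest falls among passing members whose signal was above background throughout the brighter age, and in each role up to 3 genes with the smallest p over all ages. Genes outside this rule that are named (such as Mmp12, Mmp7 and the members of the other lists) were chosen after their values were seen. Mmp3 met the rule only by its role in brain, and its colon values were added after they were seen. A gene with 2 probes was read from the brighter one. Neither the labels nor the study's methods say what a replicate number links. Within a tissue, same-numbered samples of different ages correlated little at the median in their deviations from the group means. Above 0.1 were 80 of 208 such pairs in colon and 81 of 216 in brain, against 208 of 1040 and 251 of 1080 pairs with other numbers. Between tissues, 46 of 53 same-numbered colon and brain samples of an age correlated above 0.1 (31 of 265 with other numbers), so that the numbers carry a link there. As this did not hold for every pair, the fits reported have no block, and a block shared by the tissues was fitted as an alternative. Alternatives tried were other normalization, background correction, filters, thresholds, floors, a replicate block and leaving out each sample.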

Additional observations from a re-analysis of the deposited data

Results flagged for a closer look

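In 105 groups of 5 or 6 samples, each of 1 gene, tissue and age, 6 held a sample far from the rest, and chance alone picks about 1 group in 20. Col1a1 in colon at PND1 was 1830 in replicate 4, below the 2490 to 2715 of the others. Loxl1 in colon at PND15 was 366 in replicate 6, below 438 to 463. Mmp10 in colon at E21 was 103 in replicate 3, below 137 to 154. Timp1 in colon was 561 in E21 replicate 4, the library with high neuronal markers, below 816 to 882, and 729 in PND7 replicate 1, below 963 to 1109. Col3a1 in brain at PND7 was 189 in replicate 4, above 140 to 153.

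The change from PND1 to PND22 differed between the tissues, by the test of the difference, for the 10 genes that follow, given as colon change less brain change on the log2 scale. It was higher in colon for Timp1 (1.34), Eln (1.29), Mmp10 (1.09) and Col2a1 (0.43). Mmp10 was detected in 0 of 54 brain samples and Col2a1 in 1 of 53 colon samples, so that 1 of the changes behind each of these last 2 values is one of background signals. The change was lower in colon for Adamts1 (-1.56), Col14a1 (-1.61), Col5a1 (-1.71), Spp1 (-1.82), Sparc (-1.9) and Fbn2 (-2.3). The difference of Mmp10 missed the threshold without colon PND22 replicates 1 and 2.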

How the results depend on the processing

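Counts of members that passed stayed within 1.5 times of the reported ones in most settings. With scaling to the 75th percentile they were 22 at birth in colon (11 shared with the 13 reported), 1 from PND7 to PND15 in colon and 3 from PND15 to PND22 in brain, and with normexp background correction or trend and robust moderation 1 from PND7 to PND15 in colon. With adjusted p under 0.05 they were 21 at birth, 14 from PND1 to PND7 and 5 from PND7 to PND15 in colon, and 17 from PND1 to PND7 and 13 from PND7 to PND15 in brain. With a change of at least 1.5-fold asked as well, brain kept 2 at birth, 3 from PND1 to PND7, 3 from PND7 to PND15, 1 from PND15 to PND22 and 14 from PND1 to PND22, and the tissues differed for 35 at PND22. Without colon E21 replicate 4, 8 passed at birth. Leaving out each sample in turn gave 8 to 15 at birth in colon (8 without E21 replicate 4 or PND1 replicate 2), 1 to 2 from PND7 to PND15, 41 to 44 from PND15 to PND22, and in brain 4 to 7 at birth (4 without PND1 replicate 2) and 2 to 4 from PND15 to PND22 (2 without PND22 replicate 4). The cause of these moves was not tested. Of 92 named gene results none changed direction: 87 kept their side of the threshold with normexp (9 moved by over 1.5 times), 86 with scaling, 89 with trend and robust moderation, and all 92 with the authors' normalized values, normalization within each tissue, a floor of 16 or detected probes alone. The replicate block gave 56 over all ages, 12 at birth and 44 from PND15 to PND22 in colon and 38 over all ages in brain, and 89 of the 92 results kept their side. Samples with the same number deviated together little within a tissue (median correlation 0.03 in colon, 0.05 in brain), though a larger share of their pairs was above 0.1 than with other numbers. They did so more between tissues at an age (median 0.22, above 0.1 in 46 of 53 pairs, against 31 of 265 pairs with other numbers). With a block shared by the tissues, 38 members differed in their change from PND1 to PND22 and 54 at PND22, against 36 and 54 without it, and all 22 named results of these comparisons kept their side. The 2 settings that leave out libraries standing apart, and the block shared by the tissues, were chosen after the data were seen. The array slide as a block was not run, since no slide is named in the sources used here. The lowest signal that counted as detected lay between 65.6 and 76.9 units over the arrays, and smaller levels could not be ordered.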
